A study of Mus musculus with 3 samples.

Results

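Among CD4+ T cells sorted from spleens and kidneys of lupus-prone mice, a set of cells carried transcripts of Il1r2, Slc7a10, Ecel1 or Thsd7a, genes that marked a cluster described as follicular regulatory-like. These cells, called gate cells below, were all cells of the first experimental day with at least 1 UMI (a counted molecule) of any of the 4 genes and no UMI of Cd8a or Cd8b1. There were 1215 of them among 12722 Cd8-negative cells (9.55%), with 1018 in spleen and 197 in kidney. Another 77 cells with a UMI of the 4 genes were left out because they held a Cd8a or Cd8b1 UMI. They were set against 653 other cells with a Foxp3 UMI and none of the 4 genes, and against 663 cells with a Sostdc1 or Il21 UMI, no Foxp3 UMI and none of the 4 genes.

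The mice were on the MRL/lpr background, which develops lupus-like disease, and all carried loxP-flanked Ezh2 alleles (Ezh2fl/fl). KO mice also carried CD4-Cre/ERT2, a Cre recombinase that tamoxifen activates in Cd4-expressing cells, and WT mice were Ezh2fl/fl without Cre. Animals of both genotypes were gavaged with tamoxifen in corn oil at 300 mg/kg on 3 days of every other week, starting at 10 weeks (preventative model) or 14 weeks of age (therapeutic model) and ending at 24 weeks. The labels do not tie a start to a mouse. The Cre strain had been backcrossed to MRL/lpr for 6 generations, and cells from 9 Cre-carrying and 10 floxed mice were sorted in all. Cells of 2 KO mice (KO1, KO2) and 3 WT mice (WT1, WT2, WT3) could be told apart, each with a kidney and a spleen sample, and median depth ran between 3187 and 3644.5 UMIs per cell over the 10 samples. No cell barcode was shared between the kept kidney and spleen cells, and 30 kept barcodes also stood among the second-day entries, which were not compared.

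Follicular regulatory T cells combine Foxp3, the transcription factor of regulatory T cells, with the programme of follicular helper T cells that guide B cells in germinal centres. They restrain germinal centre responses, which produce autoantibodies in lupus. IL1R2, the protein of Il1r2, is a decoy receptor that binds interleukin-1 without signalling. Slc7a10 encodes a transporter of small neutral amino acids, Ecel1 a membrane protein related to endothelin-converting enzyme, Thsd7a a membrane protein with thrombospondin repeats, and Slc24a3 a potassium-dependent sodium/calcium exchanger. In RefSeq genes of GRCm38.p6, Il1r2 lies at chr1:40084692-40125230, Slc7a10 at chr7:35186095-35201116, Ecel1 at chr1:87142874-87157085, Thsd7a at chr6:12311608-12749253 and Slc24a3 at chr2:145167775-145642166.

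The mouse and organ of every cell rest on antibody-borne DNA tags, whose sequences are shown because they set the replicates of each result. The deposited key lists 1 sequence for each mouse in each organ. The matrices number their tags without sequences, and numbers were assigned to sequences in the order in which the key lists them. The first-day tags were the following.
KO1 kidney: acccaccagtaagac
KO2 kidney: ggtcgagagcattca
WT1 kidney: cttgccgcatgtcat
WT2 kidney: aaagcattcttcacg
WT3 kidney: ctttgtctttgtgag
KO1 spleen: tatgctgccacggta
KO2 spleen: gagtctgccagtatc
WT1 spleen: tatagaacgccaggc
WT2 spleen: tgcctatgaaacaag
WT3 spleen: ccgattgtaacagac

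The 4 genes chose the cells, so their presence is a description. Il1r2 was found in 967 gate cells (79.6%), Slc7a10 in 239 (19.7%), Ecel1 in 217 (17.9%) and Thsd7a in 233 (19.2%). Il1r2 was the only one of the 4 in 655 cells, and 334 cells held 2 or more of the genes. In spleen cells of KO1, Slc7a10 was found in 23.8% of Il1r2-positive cells and 1.27% of Il1r2-negative cells. The same pair of shares was 29.2% and 2.64% in KO2, 18.3% and 1.47% in WT1, and 4.08% and 0% in WT3. With mice pooled, Slc7a10 was found in 2 of 197 kidney gate cells (1.02%) against 237 of 1018 spleen gate cells (23.3%). The spleen cells came mostly from 3 mice, with shares of 29.3% in KO1, 33.7% in KO2 and 20.0% in WT1. In spleen gate cells of WT2 and WT3, only 1 of 24 and 2 of 56 held Slc7a10. Thsd7a stood at 22.8% in kidney and 18.5% in spleen gate cells with mice pooled.

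Regulatory markers differed in degree with the number of gate UMIs. The cells with no gate UMI were all other Cd8-negative cells, not cells near the threshold. Depth differed too and was not matched. In spleen of KO1, KO2, WT1 and WT3, cells with 2 or more gate UMIs had medians of 3723, 3640, 4072 and 5018 UMIs. Those with 1 had 3277, 3157, 3294 and 3360, and those with none 3624, 3561.5, 3122 and 3187. How far depth sets the shares below was not tested. In spleen, Foxp3 was detected in 55.4%, 52.9%, 47.5% and 44.4% of cells with 2 or more gate UMIs in KO1, KO2, WT1 and WT3. It was detected in 37.3%, 41.9%, 31.9% and 34.5% of cells with 1 gate UMI, and in 9.76%, 17.997%, 10.2% and 2.15% of cells with none. Ikzf2 (Helios), a factor of regulatory T cells, was found in 93.8%, 90.8%, 81.0% and 66.7% of spleen cells with 2 or more gate UMIs and in 19.9%, 30.6%, 31.1% and 10.7% of those with none, in the same order of mice. Cxcr5, a follicular marker, did not follow in all mice. It was found in 10.8%, 18.3%, 15.3% and 25.9% of spleen cells with 2 or more gate UMIs in KO1, KO2, WT1 and WT3. In cells with none it was found in 4.62%, 6.88%, 18.7% and 26.9%. WT2 stood apart: of its 24 spleen gate cells only 1 held a Foxp3 UMI.

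Gate cell shares separated the genotypes in kidney and overlapped in spleen, and neither difference passed its test. In kidney, gate cells made up 10.4% and 7.07% of Cd8-negative cells in KO1 and KO2, against 5.34%, 1.41% and 1.63% in WT1, WT2 and WT3. The KO kidneys lay above all WT kidneys, with a mean of 8.75% ± 2.38 (SD, n = 2) in KO and 2.79% ± 2.21 (SD, n = 3) in WT, and the exact two-sided permutation test gave p = 0.2. Cells with B cell or myeloid transcripts (defined with the gene comparison below) made up 18.2% and 30.8% of kidney gate cells in KO1 and KO2, against 7.23%, 5% and 0% in WT1, WT2 and WT3. With such cells left out, the kidney shares were 8.94% and 5.17% in KO1 and KO2, against 5.06%, 1.36% and 1.65% in the WT mice, so KO2 and WT1 nearly met (exact permutation p = 0.2). In spleen, the shares were 9.18% and 17.97% in KO1 and KO2, against 24.5%, 2.65% and 2.66% in WT1, WT2 and WT3. WT1 had the highest spleen share of any mouse and the other WT mice the lowest, so the genotypes overlapped (13.6% ± 6.22 in KO, 9.93% ± 12.6 in WT, SD, exact permutation p = 0.6). Leaving out KO2 turned the spleen difference of 3.64 percentage points to -0.751, and leaving out WT1 raised it to 10.9. With 2 KO and 3 WT mice no test of this kind can give a p under 0.1.

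**Figure D1:**
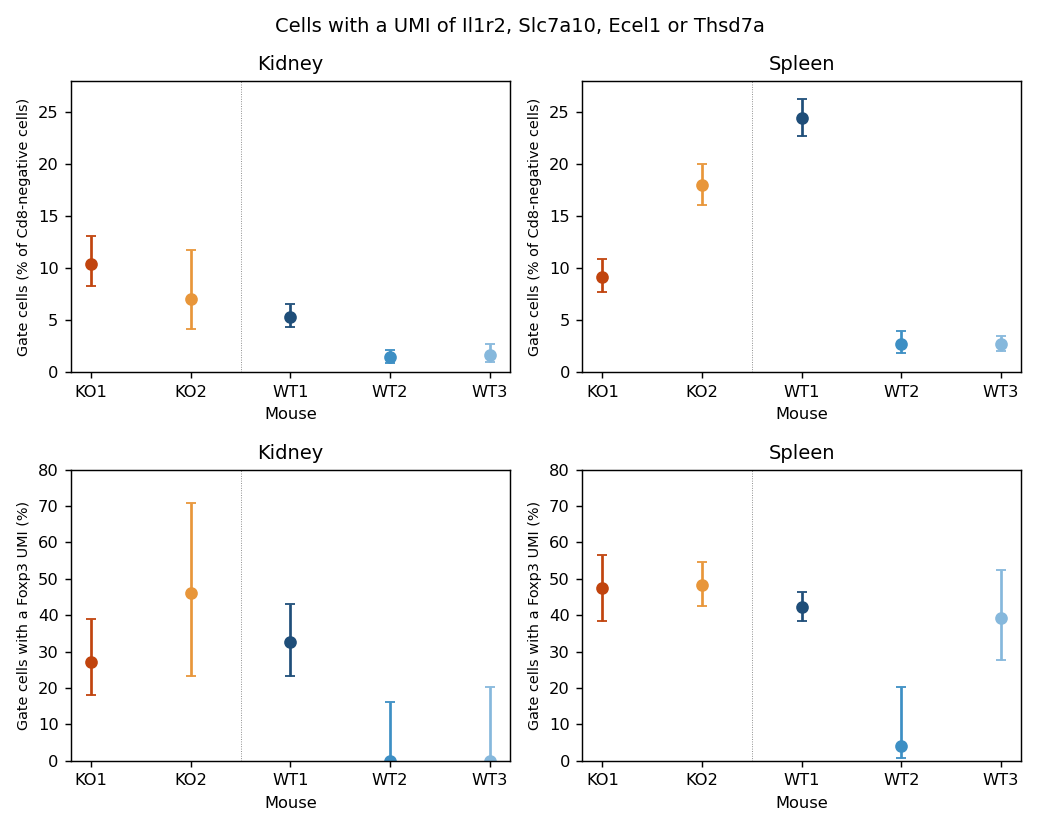
Gate cells as a percentage of Cd8-negative cells (top) and gate cells with a Foxp3 UMI as a percentage of gate cells (bottom) for each mouse in kidney (left) and spleen (right), with Wilson 95% intervals that cover counting error only. In kidney the KO mice stand at 10.4% and 7.07% and all WT mice below them, while in spleen WT1 is highest at 24.5%.

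Between organs of the same mice, gate cells averaged 5.17% ± 3.81 of Cd8-negative cells in kidney and 11.4% ± 9.64 in spleen (SD, n = 5). Kidney was lower than spleen in 4 of 5 mice, with KO1 the exception, and the paired difference of -6.21 percentage points had an exact two-sided sign-flip p = 0.25, where 5 mice allow no less than 0.0625. WT1 alone differed by -19.1 points, and without WT1 the mean difference was -2.98. Among cells with a Foxp3 UMI, the share that fell in the gate in spleen was 32.9% and 37.1% in KO1 and KO2, against 57.5%, 14.3% and 33.3% in WT1, WT2 and WT3. These shares averaged 35.0% in KO and 35.0% in WT mice (exact permutation p = 1), but the difference ran between -10.4 and 11.2 points as each mouse was left out, at -10.4 without WT2 and 11.2 without WT1, so its direction is not settled. The WT2 value comes from 7 Foxp3-positive cells, with a Wilson 95% interval of 2.57% to 51.3%.

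A Foxp3 UMI was present in 47.4% and 48.4% of spleen gate cells in KO1 and KO2, against 42.4%, 4.17% and 39.3% in WT1, WT2 and WT3. In kidney the values were 27.3% and 46.2% in KO1 and KO2, against 32.5% in WT1 and 0 of 20 and 0 of 15 gate cells in WT2 and WT3 (Wilson upper bounds 16.1% and 20.4%). The label of regulatory cells is therefore met by fewer than 1 in 2 gate cells per mouse and organ as far as Foxp3 UMIs show, at a depth where a missing UMI does not show a missing transcript.

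Several follicular transcripts were found less often in gate cells with a Foxp3 UMI than in those without, and others were not. Il21, the helper cytokine of follicular T cells, was found in 0%, 1.6%, 2.09% and 0% of Foxp3-positive spleen gate cells in KO1, KO2, WT1 and WT3, and in 19.7%, 11.3%, 31.4% and 17.6% of those without a Foxp3 UMI. Sostdc1, a secreted antagonist made by follicular T cells, was found in 1.82%, 9.6%, 1.67% and 0% of Foxp3-positive and in 16.4%, 20.3%, 24.0% and 2.94% of Foxp3-negative gate cells of the same mice. Foxp3 was thus rarely found with Il21 in 1 cell, and with Sostdc1 mainly in KO2. Cd40lg, Tox2 and Cxcr5 were also found in a lower share of Foxp3-positive gate cells in these 4 mice. Pdcd1 did not follow, at 38.2%, 40.8%, 25.1% and 22.7% of Foxp3-positive and 36.1%, 37.6%, 36.9% and 29.4% of Foxp3-negative gate cells. Nrn1 was found in 50.9%, 61.6%, 56.9% and 31.8% of Foxp3-positive and in 37.7%, 50.4%, 48.6% and 32.4% of Foxp3-negative gate cells, so it was more frequent with Foxp3 in KO1, KO2 and WT1. Among Foxp3-positive gate cells, the label of follicular regulatory-like cells was thus met in part at most, and not alike in all mice. Nrn1 and Pdcd1 were found in many of them, while Il21, Sostdc1, Cd40lg, Tox2 and Cxcr5 were rarer than without Foxp3. For comparison, Pdcd1 was found in 9.49%, 12.6%, 26.5% and 21.0% of spleen cells with no gate UMI in KO1, KO2, WT1 and WT3. Pdcd1 in Foxp3-positive gate cells of WT1 and WT3 was therefore near that level. Cxcr5 was found in 10.9%, 12.8%, 13.4% and 9.09% of Foxp3-positive gate cells. In cells with no gate UMI it was found in 4.62%, 6.88%, 18.7% and 26.9%, so WT1 and WT3 were lower in the gate. Nrn1 was found in 28.6%, 28.3%, 24.9% and 6.82% of other Foxp3-positive cells of these mice.

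Regulatory transcripts ran the other way. Ikzf2 was present in 98.2%, 90.4%, 96.7% and 95.5% of Foxp3-positive spleen gate cells in KO1, KO2, WT1 and WT3, and in 75.4%, 77.4%, 56.9% and 44.1% of Foxp3-negative ones. Il2ra, a chain of the interleukin-2 receptor, was present in 40.0%, 24.8%, 49.0% and 36.4% of Foxp3-positive and in 13.1%, 11.3%, 13.2% and 2.94% of Foxp3-negative gate cells. Slc24a3 was less divided, at 18.2%, 24.8%, 32.2% and 18.2% of Foxp3-positive and 18.03%, 27.8%, 22.8% and 2.94% of Foxp3-negative gate cells. Foxp3-positive gate cells were deeper in each of these mice, with medians of 3819, 3549, 3994 and 4452 UMIs against 3464, 3424, 3627 and 3574.

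**Figure D2:**
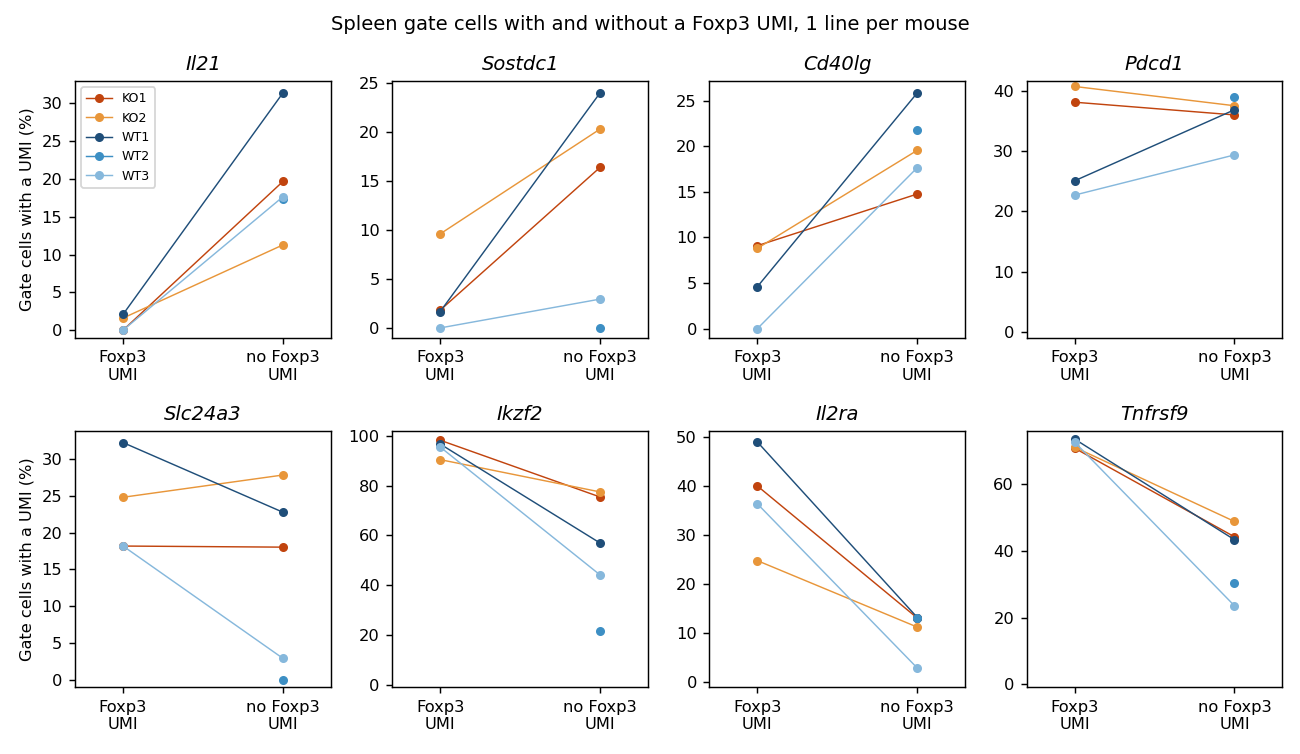
Percentage of spleen gate cells with a UMI of 8 genes, for gate cells with a Foxp3 UMI (left) and without (right), 1 line per mouse and groups of 10 or more cells only, so WT2 has a point on the right alone. Il21 and Sostdc1 are low on the left and higher on the right, while Ikzf2, Il2ra and Tnfrsf9 run the other way.

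Across cell classes of the spleen, the 4 genes were found in regulatory and follicular classes and hardly in naive cells, and the Havcr2-positive class held mainly Il1r2. Any of the 4 was present in 25.4%, 34.3%, 35.5%, 10.3% and 4.84% of Foxp3-negative cells with a Sostdc1 or Il21 UMI in KO1, KO2, WT1, WT2 and WT3. In Foxp3-negative cells with a UMI of Havcr2, an inhibitory receptor, it was 8.33%, 18.8%, 7.94%, 6.74% and 2.53% in the same mice, which in WT2 and WT3 is near the share in the follicular class. Il1r2 was found in 0 of 12, 2 of 16, 9 of 126, 12 of 178 and 8 of 356 of these Havcr2-positive cells. Slc7a10 was found in 0, 1, 0, 1 and 0 of them, and Thsd7a in 0, 0, 1, 0 and 0. In cells with UMIs of Igfbp4 and Lef1 and none of Foxp3, a naive pattern that should lack these genes, the share was 0.560% of 536 cells in KO1 and 0.667% of 450 in KO2. In the WT mice it was 0 of 36, 0 of 20 and 0 of 16 such cells, which allows shares of up to 8.33%, 15% and 18.8%. These naive-pattern cells had medians of 3892.5 and 4146 UMIs in KO1 and KO2, deeper than the gate cells of the same mice at 3670 and 3446. Slc24a3, which the gate did not use, was present in 14.3%, 24.5%, 14.0%, 0% and 0.806% of the Sostdc1- or Il21-positive cells of KO1, KO2, WT1, WT2 and WT3.

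**Figure D3:**
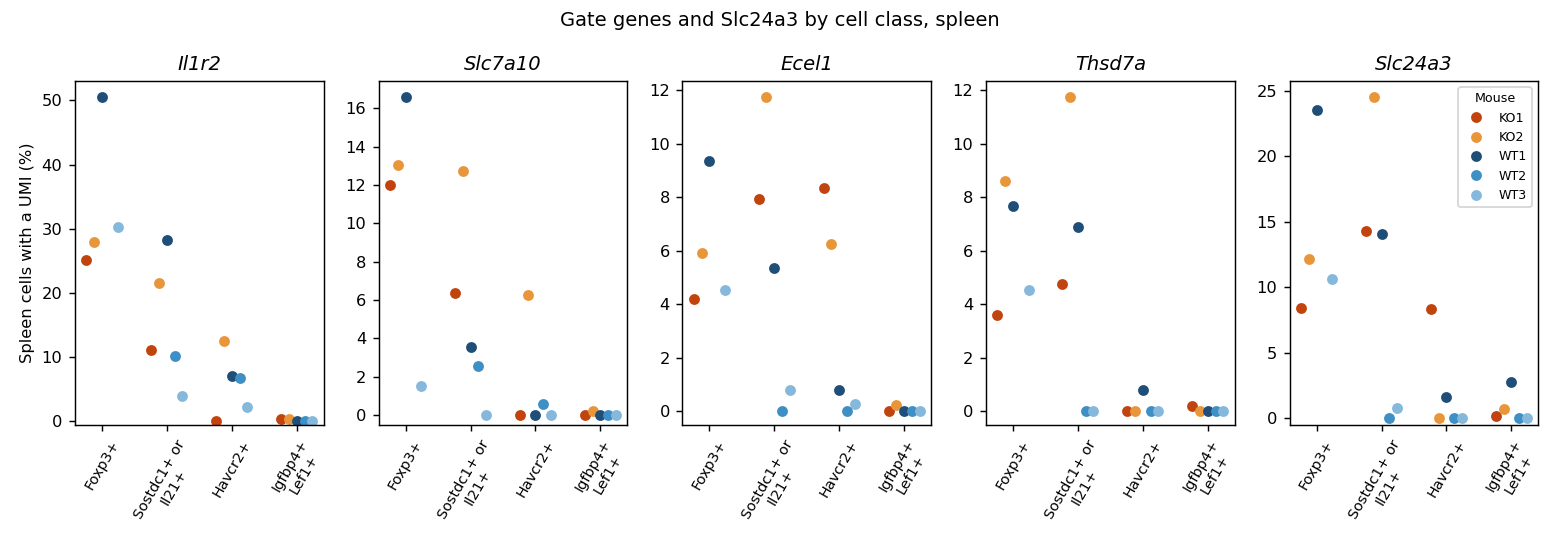
Percentage of spleen cells with a UMI of each gate gene and of Slc24a3 in 4 classes, 1 point per mouse for classes of 10 or more cells. Foxp3+ marks cells with a Foxp3 UMI and the other classes have none. Igfbp4+ Lef1+ cells stay below 3% for every gene, and Il1r2 reaches 50.5% of Foxp3+ cells in WT1.

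Against other Foxp3-positive spleen cells, gate cells held more of some follicular transcripts and fewer transcripts of recirculating and naive T cells. Only the comparator cells were chosen for a Foxp3 UMI. With that UMI required of gate cells too, most of the follicular difference was not seen, as given below. The comparison rests on UMIs summed per cell group in KO1, KO2, WT1 and WT3, the mice with at least 10 cells in both groups, and on edgeR's quasi-likelihood test with the mouse as a block. Levels are CPM, UMI counts scaled to a common depth with TMM factors. Of 7207 genes tested, 396 passed an adjusted p of 0.05, 185 higher and 211 lower in gate cells, which is 5.49% of genes (2.57% higher and 2.93% lower). Without KO1, KO2 or WT1 the count was 192, 172 or 207, and without the mouse block it was 124. Since the 4 genes had been picked from a cluster of these same cells, the adjusted p-values describe these cells and mice and are no independent support.

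Slc24a3, a marker of the same cluster that the gate did not use, had 56.9, 138, 114 and 30.4 CPM in gate cells of KO1, KO2, WT1 and WT3. Their other Foxp3-positive cells had 9.91, 20.5, 50.4 and 23.9 CPM. Gate cells were higher in 4 of 4 mice (log2 fold change 1.82 ± 0.28 SE, edgeR adjusted p = 0.00145). Il21 had 66.0, 41.0, 127 and 53.2 CPM in gate cells and 0, 1.28, 11.9 and 0 CPM in other Foxp3-positive cells (log2 fold change 4.07 ± 0.37, edgeR adjusted p = 2.28e-05). Sostdc1 had 127, 219, 251 and 26.6 CPM in gate cells and 0, 55.2, 5.94 and 5.98 CPM in other Foxp3-positive cells (log2 fold change 3.17 ± 0.40, edgeR adjusted p = 0.00037). As given above, these 2 transcripts lay mostly in gate cells without a Foxp3 UMI, and neither gene passed the low-count filter when a Foxp3 UMI was required of gate cells.

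Of the follicular list, 7 of 22 tested members rose (Pdcd1, Tox2, Il21, Tox, Sostdc1, Nrn1 and Cd200) and none fell, with a median log2 fold change of 0.42 against 0.00 over all genes. Nrn1, a surface-anchored neuritin, had 499, 505, 421 and 137 CPM in gate cells of KO1, KO2, WT1 and WT3, against 166, 232, 159 and 23.9 CPM in other Foxp3-positive cells, and the groups of the same mouse did not cross. Pdcd1, the inhibitory receptor PD-1, had 147, 209, 144 and 95.0 CPM in gate cells and 29.7, 108, 50.4 and 11.97 CPM in other Foxp3-positive cells (log2 fold change 1.46 ± 0.21, edgeR adjusted p = 0.000813). Cxcr5, the receptor that leads cells to follicles, did not pass, with 33.0, 46.5, 49.0 and 83.6 CPM against 9.91, 23.1, 46.0 and 53.9 CPM (log2 fold change 0.63 ± 0.25, edgeR adjusted p = 0.175). Bcl6, the factor that defines follicular helper cells, did not pass either (log2 fold change 0.52 ± 0.28, edgeR adjusted p = 0.348). With a Foxp3 UMI required of gate cells, 279 of 6553 genes passed (4.26%), and 2 of 20 members rose, Pdcd1 and Nrn1. The list median was then 0.03, against -0.01 over all genes.

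Regulatory genes were split. Tnfrsf9 and Ccr8 rose and Il2ra and Gpr83 fell among 21 members tested, whose median log2 fold change was -0.11. Tnfrsf9, the costimulatory receptor 4-1BB, had 565, 513, 519 and 422 CPM in gate cells, against 260, 330, 460 and 209 CPM in other Foxp3-positive cells of KO1, KO2, WT1 and WT3 (log2 fold change 0.66 ± 0.14, edgeR adjusted p = 0.0139). Il2ra had 132, 72.9, 148 and 87.4 CPM in gate cells, against 235, 131, 257 and 245 CPM (log2 fold change -0.91 ± 0.14, edgeR adjusted p = 0.0013). Ikzf2 did not pass, at 1011, 1010, 747 and 634 CPM in gate cells and 847, 991, 1077 and 736 CPM in other Foxp3-positive cells (log2 fold change -0.12 ± 0.12, edgeR adjusted p = 0.658). Every comparator cell was chosen for a Foxp3 UMI and gate cells were not. With a Foxp3 UMI required of gate cells too, 4 of 22 regulatory members rose (Tnfrsf9, Tnfrsf4, Ccr8 and Tigit), none fell, and Il2ra stood at -0.29 (edgeR adjusted p = 0.271).

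Genes of naive and recirculating T cells fell, 9 of 11 members tested (among them S1pr1, Lef1, Klf2 and Ccr7), with a median log2 fold change of -0.81 and none higher. Klf2, a factor that keeps T cells recirculating, had 693, 653, 503 and 1185 CPM in gate cells of KO1, KO2, WT1 and WT3, against 2032, 1487, 1407 and 2537 CPM in other Foxp3-positive cells (log2 fold change -1.33 ± 0.09, edgeR adjusted p = 3.95e-06). S1pr1, the receptor for exit from lymphoid tissue, had 47.7, 37.4, 24.7 and 15.2 CPM against 86.7, 116, 77.2 and 89.8 CPM (log2 fold change -1.53 ± 0.21, edgeR adjusted p = 0.000567). Gate cells were lower in all 4 mice for both genes. With a Foxp3 UMI required, 5 of 10 members fell.

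Among the largest rises, Bace2, an aspartyl protease, had a log2 fold change of 3.76 ± 0.48, Hs6st3, a heparan sulfate sulfotransferase, 3.49 ± 0.44, and the unnamed locus 1700019D03Rik 3.15 ± 0.30. Scin, an actin-severing protein, had 71.5, 97.5, 161 and 167 CPM in gate cells and 14.9, 12.8, 25.2 and 11.97 CPM in other Foxp3-positive cells of KO1, KO2, WT1 and WT3 (log2 fold change 2.78 ± 0.22, edgeR adjusted p = 7.34e-06), and rose by 2.39 with a Foxp3 UMI required. The largest falls were Ccr2, Phactr1, Ndrg1, Cd7, Vps37b, S1pr1, Rasgrp2, Ly6c2, Rflnb and Ifngr1. Ifngr1, the ligand-binding chain of the interferon-gamma receptor, was the most even, at 224, 179, 147 and 232 CPM in gate cells and 493.1, 494.5, 442 and 700 CPM in other Foxp3-positive cells (log2 fold change -1.45 ± 0.11, edgeR adjusted p = 7.34e-06). Ndrg1, a stress-responsive gene, had 25.7, 21.0, 13.8 and 7.60 CPM in gate cells and 312, 25.7, 29.7 and 35.9 CPM in other Foxp3-positive cells, so KO1 set most of its difference, and it stood at -0.54 (edgeR adjusted p = 0.397) once cells with B cell or myeloid transcripts were left out. Ccr2, a chemokine receptor of inflammatory homing, had 3.67, 5.47, 6.17 and 133 CPM in gate cells, so WT3 stood high, against 86.7, 39.8, 49.0 and 186 CPM.

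In T cell receptor signalling, Egr2, Batf and Nfatc1 rose and Cd69, Tnfaip3 and Nr4a1 fell among 14 members tested. Batf, a factor of activated effector and follicular cells, had 433, 576, 467 and 433 CPM in gate cells and 191, 221, 230 and 227 CPM in other Foxp3-positive cells of KO1, KO2, WT1 and WT3 (log2 fold change 1.15 ± 0.12, edgeR adjusted p = 3.7e-05). Of 14 cell cycle members, 2 rose (Tyms and Mki67), and 11 of 14 did so with a Foxp3 UMI required of gate cells. None of the 8 amino acid transporters tested passed, and of 9 IL-1 family members only Il18r1 passed, lower in gate cells (log2 fold change -0.65 ± 0.17, edgeR adjusted p = 0.0383). Ezh2, the targeted gene, was higher in gate cells, at 88.1, 88.4, 93.9 and 133 CPM against 47.1, 69.4, 53.4 and 59.8 CPM (log2 fold change 0.71 ± 0.18, edgeR adjusted p = 0.03).

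B cell transcripts moved with this comparison. H2-Ab1, H2-Aa and Cd74 rose among 5 members of a B cell list of 11, whose summed level without TMM scaling was 1945, 2187, 1858 and 3851 CPM in gate cells and 1485, 1463, 1575 and 1016 CPM in other Foxp3-positive cells of KO1, KO2, WT1 and WT3. Neutrophil and myeloid genes summed to 321, 938, 176 and 508 CPM in gate cells and 152, 130, 202 and 90.8 CPM in other Foxp3-positive cells. In WT3, 335 of 338 class II UMIs came from 1 gate cell. At least 2 UMIs of H2-Aa and H2-Ab1, or any UMI of Cd79a, Cd79b, Ms4a1, Lyz2, S100a8, S100a9 or Csf3r, were found in 110 gate cells in all, and 99.1% of gate cells held a UMI of a CD3 chain or Trac. With such cells left out, 388 genes passed, of which 333 were among the 396, and H2-Ab1, H2-Aa, Cadm1 and Dnase1l3 no longer passed the low-count filter, while Il21 stood at 4.03 (edgeR adjusted p = 3.23e-07).

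By detection, the genes most like the 4 gate genes in spleen were Lag3, Eea1, Cd83, 2310001H17Rik, Nrn1, Cst7, Pdcd1, Cd82, Bcl2a1b and Tnfsf8, ranked by the share of gate cells with a UMI minus that of other Foxp3-positive cells, with the 4 mice weighted equally. Lag3, an inhibitory receptor, was found in 52.6%, 58.5%, 72.3% and 42.9% of gate cells in KO1, KO2, WT1 and WT3, against 14.3%, 22.2%, 55.9% and 25.0% of other Foxp3-positive cells. Eea1, a tether of early endosomes, was found in 54.3%, 61.2%, 72.7% and 53.6% of gate cells, against 24.1%, 32.5%, 48.6% and 31.8%. Each of the 10 genes was found in more gate cells in 4 of 4 mice, a direction that the ranking by this same difference largely sets. Gate cells were also deeper, with medians of 3670, 3446, 3798.5 and 3845.5 UMIs against 3169, 3206, 3266 and 3510.5.

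Against Foxp3-negative spleen cells with a Sostdc1 or Il21 UMI, gate cells held more regulatory and fewer helper and cytotoxic transcripts. The comparator cells were chosen to lack a Foxp3 UMI and to hold a follicular transcript, so the direction of the regulatory and follicular lists is partly set by that choice and is given as a description. All 5 mice entered, and 132 of 5888 genes passed (2.24%), 87 higher (1.48%) and 45 lower (0.764%). The count was 32, 55, 21 or 223 without KO1, KO2, WT1 or WT2, and 7 without the mouse block. Of the regulatory list, 8 of 17 members rose (Ikzf2, Il2ra, Tnfrsf9, Tnfrsf4, Tnfrsf18, Areg, Capg and Ccr8) and Il10 fell, with a median log2 fold change of 0.80 against -0.01 over all genes.

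Ikzf2 had 1044, 1037, 760, 188 and 645 CPM in gate cells of KO1, KO2, WT1, WT2 and WT3, against 243, 408, 164, 13.8 and 42.7 CPM in Sostdc1- or Il21-positive cells (log2 fold change 2.32 ± 0.27, edgeR adjusted p = 0.000834). Tnfrsf9 had 584, 527, 527, 199 and 428 CPM in gate cells and 90.6, 86.8, 156, 64.2 and 60.1 CPM in the other group (log2 fold change 2.28 ± 0.18, edgeR adjusted p = 0.000105). The groups did not overlap for Tnfrsf9 over the 5 mice, and WT2 was lowest among gate cells for both genes. Ccr8, a chemokine receptor of activated regulatory cells, had 96.6, 87.1, 90.3, 5.87 and 54.0 CPM in gate cells and 0, 26.0, 8.59, 0 and 0 CPM in the other group. Slc24a3 was higher in gate cells of 4 of 5 mice and at 0 CPM in both groups of WT2 (log2 fold change 1.66 ± 0.35, edgeR adjusted p = 0.0291). As a marker of the same cluster as the gate genes, it gives no independent support here either.

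Of the follicular list, 5 of 20 members fell (Pdcd1, Angptl2, Tox2, Il6ra and Cd40lg) and none rose. Cd40lg, the ligand through which helper cells activate B cells, had 47.4, 74.9, 65.6, 46.9 and 27.0 CPM in gate cells of KO1, KO2, WT1, WT2 and WT3, against 181, 365, 264, 68.8 and 98.9 CPM in Sostdc1- or Il21-positive cells (log2 fold change -1.95 ± 0.19, edgeR adjusted p = 0.000178). Pdcd1, which was higher in gate cells than in other Foxp3-positive cells, was lower here (log2 fold change -0.77 ± 0.18, edgeR adjusted p = 0.0435), with WT2 the 1 mouse in which gate cells were higher. Nrn1 did not pass (log2 fold change 0.57 ± 0.22, edgeR adjusted p = 0.275). Of 13 cytotoxic members, Nkg7, Ifng, Ccl5 and Ccl4 fell. Ifng had 89.1, 68.4, 96.6, 757 and 371 CPM in gate cells and 181, 226, 409, 816 and 1164 CPM in the other group (log2 fold change -1.35 ± 0.24, edgeR adjusted p = 0.00996).

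The largest rises were Swap70, Cd74, Ccr8, Dscam, Bmyc, Ikzf2, Tnfrsf9, Ccrl2, Ighm and Hdac9, and the largest falls Cd40lg, Sema4a, Gpr155, Ifng, Tox2, Zscan29, S1pr1, Gm26887, Ms4a4b and Mfsd6. Dscam, a cell adhesion molecule known from neurons, had 216, 245, 134, 76.3 and 174 CPM in gate cells of KO1, KO2, WT1, WT2 and WT3, against 19.1, 4.34, 12.9, 13.8 and 38.8 CPM in Sostdc1- or Il21-positive cells, with no overlap (log2 fold change 3.13 ± 0.30, edgeR adjusted p = 0.000178). Swap70, a signalling protein that binds actin, had a log2 fold change of 3.78 ± 0.48 (edgeR adjusted p = 0.00122). The B cell list moved here too, and 3 of 3 members tested rose (Igkc, Ighm and Cd74), with summed levels of 1945, 2187, 1858, 680 and 3851 CPM in gate cells and 420, 319, 223, 417 and 331 CPM in the other group. The comparison was also run with cells holding B cell, dendritic or myeloid transcripts left out. Over all comparisons run that way, 50 of 51 values of single genes that passed the low-count filter kept their direction and side of the threshold. That count does not separate this comparison from the others. With a Foxp3 UMI required of gate cells, 395 of 6123 genes passed (6.45%), 14 of 19 regulatory members rose, 8 of 20 follicular members fell and 10 of 13 cytotoxic members fell, where the groups were chosen for and against Foxp3, which by itself sets the direction of the regulatory list.

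**Figure D4:**
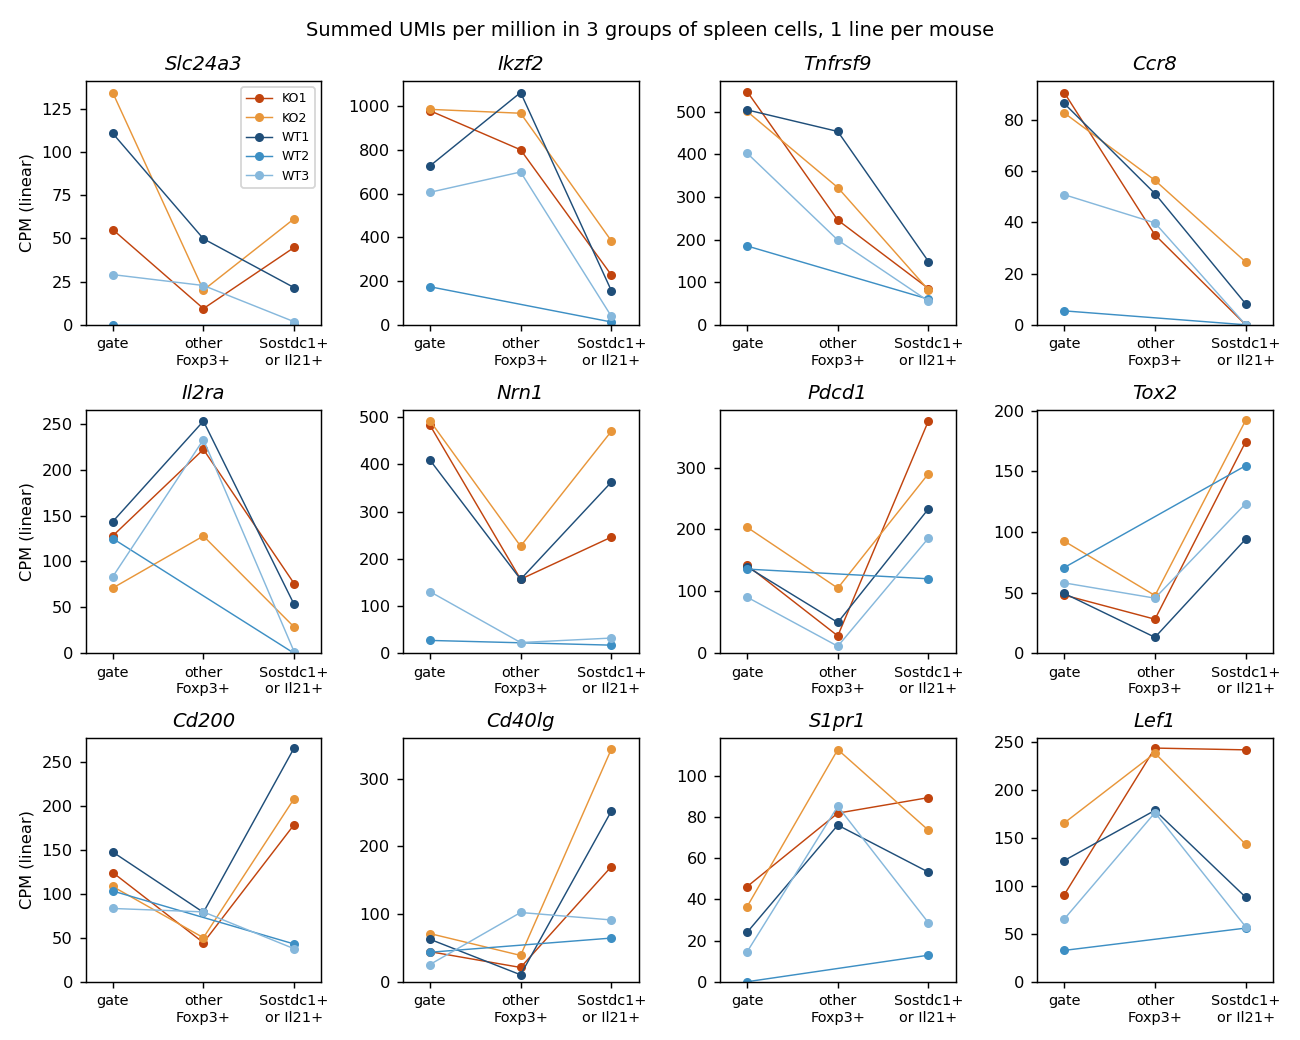
Levels of 12 genes in CPM without TMM scaling, in gate cells, other Foxp3+ cells and Sostdc1+ or Il21+ cells of the spleen, 1 line per mouse and groups of 10 or more cells. Gate cells are highest for Slc24a3 in KO1, KO2, WT1 and WT3, near other Foxp3+ cells for Ikzf2, and between the other groups for Pdcd1 in these 4 mice.

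In kidney, only KO1 and WT1 had at least 10 cells among both gate cells and other Foxp3-positive cells, so values are given without a test, in CPM without TMM scaling. Nrn1 had 391 and 180 CPM in kidney gate cells of KO1 and WT1, against 64.6 and 84.2 CPM in other Foxp3-positive kidney cells. Ccr8 had 77.0 and 165 CPM in gate cells against 18.5 and 61.0 CPM, and S1pr1 63.3 and 108 CPM against 258 and 203 CPM. Cd200 had 198 and 156 CPM against 9.23 and 43.6 CPM. For these 4 genes the kidney values of both mice lay on the same side as in spleen, and other genes that passed in spleen did not follow. Ccr7 had 594 and 564 CPM in kidney gate cells of KO1 and WT1 against 295 and 395 CPM, and Lef1 88.0 and 79.8 CPM against 73.8 and 72.6 CPM, both opposite to spleen. Igfbp4, Il7r, Satb1, Cd69, Nr4a1 and Tnfaip3 were higher in gate cells of KO1 and lower in those of WT1. Slc24a3 was nearly even in KO1 (19.3 and 18.5 CPM) and higher in gate cells of WT1 (55.7 and 31.9 CPM).

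Kidney gate cells differed from spleen gate cells of the same 5 mice in 346 of 4937 genes (7.01%), 250 higher (5.06%) and 96 lower (1.94%) in kidney. The count was 182 or 166 without KO1 or WT1, and 114 without the mouse block. Kidneys were dissociated with enzymes under heating while spleens were mashed through a strainer, so organ and preparation cannot be told apart. Myeloid transcripts moved with this comparison, and Tyrobp, a myeloid and natural killer cell adaptor, rose in kidney while Ighm fell. The myeloid list summed to 504, 2588, 238, 2958 and 34.1 CPM in kidney gate cells of KO1, KO2, WT1, WT2 and WT3, against 321, 938, 176, 147 and 508 CPM in spleen gate cells. With cells holding B cell or myeloid transcripts left out, 260 genes passed, and KO2 kept 9 kidney gate cells, under the minimum of 10. Summed UMIs per mouse lay between 52155 and 538679 in kidney gate cells and between 183934 and 2837564 in spleen gate cells.

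The largest rises in kidney were Ramp3, Vps37b, Mpp7, Crem, Fosl2, Dgat1, Tent5a, Ern1, D16Ertd472e and Ifitm2. Cells outside the gate were not compared between organs, so whether any organ difference is particular to gate cells was not tested. Ramp3, a partner of peptide hormone receptors, had 194, 123, 157, 44.2 and 151 CPM in kidney gate cells of KO1, KO2, WT1, WT2 and WT3, against 18.9, 7.51, 14.9, 0 and 7.74 CPM in spleen, with no overlap (log2 fold change 3.55 ± 0.28, edgeR adjusted p = 1.08e-07). Vps37b, a subunit of the ESCRT sorting machinery, had 613, 1002, 802, 464 and 1166 CPM in kidney and 94.4, 122, 80.1, 91.7 and 69.7 CPM in spleen (log2 fold change 3.11 ± 0.19, edgeR adjusted p = 2.28e-09). Crem, a factor of the cyclic AMP response, had 271, 245, 379, 110 and 207 CPM in kidney and 22.7, 58.2, 45.4, 6.12 and 89.0 CPM in spleen (log2 fold change 2.72 ± 0.28, edgeR adjusted p = 2.53e-06).

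Signalling and migration genes were among those that rose. Of 13 receptor signal members, Nr4a1, Nr4a2, Nr4a3, Dusp2 and Tnfaip3 rose and Batf and Myc fell. Nr4a3, an orphan nuclear receptor induced by receptor signalling, had 567, 225, 449, 331 and 433 CPM in kidney gate cells of KO1, KO2, WT1, WT2 and WT3, against 157, 177, 123, 48.9 and 116 CPM in spleen (log2 fold change 1.74 ± 0.21, edgeR adjusted p = 2.12e-05). Of 10 chemokine receptor and adhesion members, 5 rose (Cxcr4, Cd44, Itgb1, S1pr4 and Gpr183) and none fell, and of 10 naive and recirculation members 4 rose (S1pr1, Bach2, Ccr7 and Il7r). Ccr7, the lymph node homing receptor, had 666, 552, 646, 44.2 and 414 CPM in kidney and 110, 166, 188, 12.2 and 190 CPM in spleen (log2 fold change 1.88 ± 0.20, edgeR adjusted p = 3.61e-06).

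Regulatory genes that passed were lower in kidney. Of 20 regulatory members, 5 fell (Ikzf2, Tnfrsf9, Tnfrsf18, Klrg1 and Izumo1r) and none rose. Ikzf2 had 601, 266, 617, 14.7 and 132 CPM in kidney gate cells of KO1, KO2, WT1, WT2 and WT3, against 1041, 1040, 767, 196 and 646 CPM in spleen (log2 fold change -1.17 ± 0.25, edgeR adjusted p = 0.00511). Tnfrsf9 fell by 1.37 on the log2 scale (SE 0.26, edgeR adjusted p = 0.00195) and Cxcr5 by 1.31 (SE 0.33, edgeR adjusted p = 0.0175), each in 5 of 5 mice. In the follicular list Icos and Fgl2 rose and Tox and Cxcr5 fell, among 21 members tested. Foxp3 itself had 136, 409, 145, 0 and 0 CPM in kidney and 314, 264, 291, 24.5 and 395 CPM in spleen and did not pass (log2 fold change -1.02 ± 0.33, edgeR adjusted p = 0.0683). Slc24a3 had 21.6, 61.3, 63.8, 0 and 0 CPM in kidney and 58.6, 142, 117, 0 and 31.0 CPM in spleen (log2 fold change -1.11 ± 0.30, edgeR adjusted p = 0.0299). In bulk sums such as these, fewer cells with a transcript and less RNA per cell cannot be told apart. The share of gate cells with a Foxp3 UMI was lower in kidney in each of the 5 mice, narrowly so in KO2. In WT2 the difference rested on 1 cell, with 0 of 20 in kidney and 1 of 24 in spleen.

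**Figure D5:**
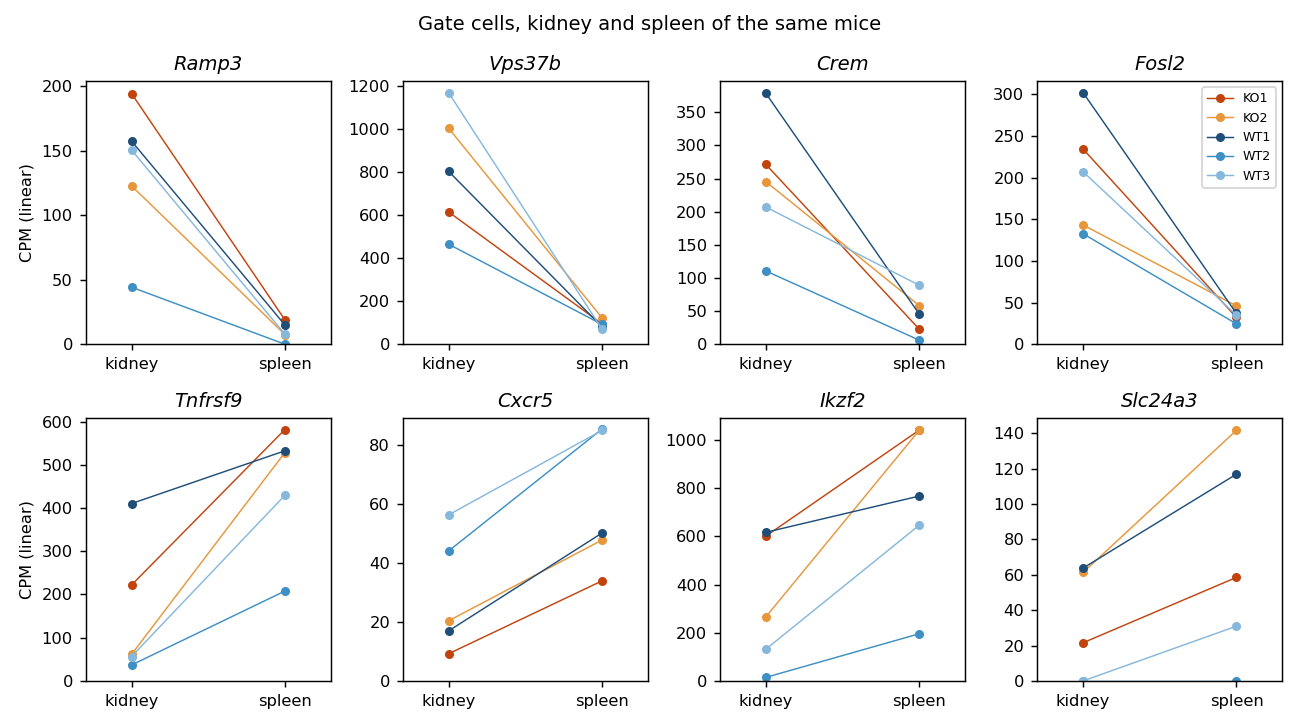
Levels of 8 genes in gate cells of kidney (left) and spleen (right), in TMM-scaled CPM, 1 line per mouse. Ramp3, Vps37b, Crem and Fosl2 are higher in kidney in all 5 mice, and Tnfrsf9, Cxcr5 and Ikzf2 lower in all 5.

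Between genotypes, no gene passed in spleen gate cells. Ezh2 had 87.4 and 88.5 CPM in gate cells of KO1 and KO2, against 94.0, 208 and 129 CPM in WT1, WT2 and WT3 (log2 fold change -0.60 ± 0.35, edgeR, smallest adjusted p over all genes 0.486). The KO values lay below all WT values but close to WT1. The library counts molecules at the 5′ end and the sources used here do not give the floxed exons, so this level does not check the deletion. Of 7391 genes tested with edgeR, 0 passed (0%), 220 had an unadjusted p under 0.05, and DESeq2 called 1.

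The cytotoxic list had the largest shift among the lists, a median log2 fold change of -2.44 over 13 members against 0.00 over all genes. Levels of the genotypes did not overlap for 10 of 13 members, against 21.9% of all genes, and none passed. In the Sostdc1- or Il21-positive spleen cells above, Ifng, a member of this list, was also lower in each KO mouse than in every WT mouse. Whether the shift is particular to gate cells was not tested. Gzmk, a granzyme, had 27.3 and 65.7 CPM in gate cells of KO1 and KO2, against 80.2, 941 and 414 CPM in WT1, WT2 and WT3. Nkg7, a granule protein, had 379 and 334 CPM in KO1 and KO2, against 632, 2747 and 1427 CPM in WT1, WT2 and WT3. WT2, which stood highest for both, was the mouse with 1 Foxp3-positive cell among 24 gate cells, and Gzmk was found in 91.3% of its Foxp3-negative spleen gate cells and 61.8% of those of WT3, against 6.56%, 9.02% and 17.8% in KO1, KO2 and WT1. With a Foxp3 UMI required of gate cells, the median of the list was -0.78 over 11 members, but WT2 then fell under 10 cells and left the comparison, so the change of gate and the loss of WT2 cannot be told apart.

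Ikzf2 had 1004 and 1011 CPM in gate cells of KO1 and KO2, against 748, 185 and 618 CPM in WT1, WT2 and WT3. Nrn1 had 495 and 505 CPM in KO1 and KO2, against 421, 28.9 and 133 CPM in the WT mice. Slc24a3 had 56.5 and 138 CPM in KO1 and KO2, against 114, 0 and 29.6 CPM in the WT mice, which overlapped. Levels of the genotypes did not overlap for 7 of 21 regulatory members (33.3%) and 9 of 25 follicular members (36%), against 21.9% of all genes. None of these members passed. WT2, lowest for Ikzf2, Nrn1 and Slc24a3, had 1 Foxp3-positive cell among its 24 gate cells.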

How the data were processed

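Single-cell 5′ RNA libraries with antibody tags gave UMI counts for 1 pooled kidney and 1 pooled spleen matrix. The authors made the deposited counts with Cell Ranger 7.1.0, and mm10 (GRCm38) and Seurat 5.0.1 are named per the submitters' processing notes, which give no filter. Blocks of barcodes led by 1 tag were given to a mouse: 13368 of 30891 entries were of the first day, 13 were led by another tag, and 13337 passed a minimum of 200 detected genes with a mitochondrial share below 10%. The 17523 second-day entries, in 8 blocks, held 2399 distinct barcodes and were assigned to no mouse. No doublet caller was run.

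UMI counts were summed per mouse and cell group with at least 10 cells, and tested with edgeR 4.0.16 (quasi-likelihood, TMM, filterByExpr, Benjamini-Hochberg, threshold 0.05), with the mouse as a block where groups shared mice, since both groups come from the same animal. Shares were compared with exact permutation tests over mice, and intervals are Wilson 95% and cover counting error only. Genes of the gate, and the genes that chose the comparator cells, were left out of calls in the comparisons between cell groups. Between genotypes and between organs, where all cells were gate cells, they were kept, and none of the 4 gate genes passed. The code was tested on simulated counts. Named genes were list members, and the 10 largest rises and falls that passed with 1 direction in every mouse. The members and lists were chosen with earlier results of these data known. DESeq2 1.42.0 and the settings given in the closing section were alternatives.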

Additional observations from a re-analysis of the deposited data

Results flagged for a closer look

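In 64 sets of per-mouse differences, 1 mouse lay far from the others in 9 sets by Dixon's test, where chance flags about 1 in 20. Differences are on the log2(CPM + 1) scale. Between gate and other Foxp3-positive spleen cells, H2-Aa differed by 9.56 in WT3 and by 1.21 to 2.55 in the other mice, and 335 of the 338 class II UMIs of WT3 gate cells came from 1 cell. Vps37b differed by -2.28 in WT3 and by -1.52 to -1.47 in the others.

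Between gate cells and Sostdc1- or Il21-positive cells, Cd40lg differed by -0.54 in WT2 (others -2.27 to -1.83) and S1pr1 by -3.88 in WT2 (others -1.13 to -0.94). Tox2 differed by -1.84 in KO1 (others -1.10 to -0.92). Between kidney and spleen gate cells, Mpp7 differed by 4.38 in WT2 (others 2.54 to 3.01) and Ifitm2 by 7.06 in WT2 (others 1.58 to 2.18). Airn differed by -5.57 in WT3 (others -1.78 to -0.82) and Slc24a3 by -5.00 in WT3 (others -1.40 to 0), where the kidney gate cells of WT3 numbered 15. In spleen, WT2 and WT3 had the fewest gate cells, 24 and 56, and in kidney KO2 had the fewest, 13.

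Gate cells were also present in second-day data that entered no comparison. Counting each barcode once, 84 of 2015 Cd8-negative cells fell in the gate, or 4.17% (Wilson 95% interval 3.38% to 5.13%). Of these, 41.7% held a Foxp3 UMI and 67.9% an Ikzf2 UMI, and Slc24a3 was found in 9.52% against 1.44% of 139 other Foxp3-positive cells.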

How the results depend on the processing

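The KO minus WT difference in the gate share of Foxp3-positive spleen cells, -0.0106 percentage points, turned to 7.76 with Il1r2 left out of the gate, 2.87 with cells thinned to 2000 UMIs, 2.07 without KO1 and 11.2 without WT1, and ranged from -10.4 to 11.2 with each mouse left out. The spleen share difference ranged from -0.751 (without KO2) to 10.9, the kidney one from 4.27 to 7.63 and the kidney minus spleen one from -8.08 to -2.98. Against other Foxp3-positive cells, DESeq2 called 187 genes, no low-count filter 697, a gate of 2 or more UMIs 619, no mouse block 124, and leaving out each mouse 172 to 425 (192 without KO1, 207 without WT1). Against Sostdc1- or Il21-positive cells these were 63, 435, 248, 7 and 21 to 223, and 395 with a Foxp3 UMI required. Between genotypes DESeq2 called 1 gene, no filter 56, and leaving out each mouse 0 to 5. Between organs, no mouse block gave 114 and leaving out each mouse 166 to 355. The Slc24a3 difference between genotypes reversed to -0.26 with a Foxp3 UMI required and to -0.18 without KO2, with a range of -0.18 to 2.47 when each mouse was left out. The causes were not tested. Of 260 values of single genes with a mouse left out, 225 kept their direction and side of the threshold, and without the mouse block 30 of 63 did. The Foxp3 requirement and leaving out cells with B cell, dendritic or myeloid transcripts were chosen after seeing the data, except that the Foxp3 requirement against other Foxp3-positive cells was planned. Kidney gate cells against other Foxp3-positive kidney cells, and kidney against spleen with 2 or more gate UMIs, were not run, with fewer than 3 mice of enough cells. Depth limits the kidney sums, the smallest of which held 52155 UMIs.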

Other observations

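Some cytotoxic genes were lower in kidney than in spleen gate cells, in a comparison where 7.01% of all genes passed. Of 11 cytotoxic members tested, Cst7, Lag3, Ccl5 and Ccl4 fell in kidney and none rose, with a median log2 fold change of -0.34 against -0.04 over all genes. Slc3a2, the heavy chain that amino acid transporters pair with, rose as the 1 member of 6 amino acid transport genes tested that passed, with a list median of -0.03, and of 7 IL-1 family members Il18r1 rose and Sigirr fell.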
